A study of Mus musculus with 9 samples.

Results

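The genes described here are 32 transcripts that mark macrophages and, in part, dendritic cells, taken by gene symbol from a list. That list was chosen with earlier results of these data known. They are 32 of the 54532 genes in the deposited mouse count table, and each was measured in all 9 prostate libraries. All 32 passed the low-count filter, which kept 16836 genes for testing. The groups were Srd5a2-/- (KO), Srd5a2+/- (Het) and wild-type (WT) mice, with 3 libraries each. Srd5a2 encodes the type II steroid 5-alpha-reductase, which turns testosterone into the more potent dihydrotestosterone. Per the series text, Het males were mated with C57BL6 females and null males came from the third generation of that breeding. The sources used here do not give age, lobes or the number of animals behind a library. The p-values therefore measure only the spread between these libraries, which may be technical.

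Macrophages are phagocytes that live in most tissues, where they clear dying cells and debris and respond to injury. Their survival depends on the receptor CSF1R, and their gene programme on the transcription factor PU.1, encoded by Spi1. In the prostate they lie mainly in the stroma, among fibroblasts, smooth muscle and vessels. Dendritic cells are related phagocytes that carry antigen to lymph nodes and present it to T cells. In bulk tissue, fewer cells of a type and less RNA per cell cannot be told apart.

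Library totals ran from 16233392 to 24017791 reads, of which 2753 to 6059 fell on the 32 genes. Levels are given as CPM, read counts scaled to a common library size of 1e6 after TMM, a normalisation that sets aside the most extreme genes. Srd5a2 itself stood at 0.934, 0.512 and 1.15 CPM in KO, at 3.68, 5.19 and 2.37 CPM in Het and at 2.30, 5.504 and 8.81 CPM in WT. All 3 KO libraries lay below every Het and WT library, with a log2 fold change of -2.67 ± 0.62 (SE) in KO against WT and an adjusted p of 1 by edgeR's quasi-likelihood test, the tool behind every adjusted p below unless another is named. Of 2385 genes averaging 1 to 3 CPM, 0.126% to 0.881% had no read in the KO libraries, 12.2%, 10.6% and 12.4% had none in the Het libraries, and 2.05%, 1.76% and 7.34% had none in the WT libraries. The Het libraries therefore held more empty genes in the range where many of the 32 lie. Levels of the secretory gene Sbp also split the genotypes, at under 100 CPM in Het 2, WT 1 and WT 3 and at 34372 CPM or more in the other libraries.

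The label was checked against markers of both cell types. C1qa and Csf1r, the defining macrophage markers, were detected in all 9 libraries, at 12.2 to 40.8 CPM and 7.01 to 20.9 CPM. Some genes that define dendritic cells were at or near 0: Clec9a and Xcr1, of the cross-presenting type, peaked at 1.02 and 0.883 CPM, and Flt3, the dendritic growth factor receptor, peaked at 0.506 CPM and had no read in any WT library. Siglech, of plasmacytoid cells, had no read in Het and reached 0.796 CPM in KO and 1.71 CPM in WT. Other dendritic genes were detected: Zbtb46, a transcription factor of conventional dendritic cells, stood at 2.51 to 4.56 CPM in KO, 0 to 1.01 CPM in Het and 1.26 to 1.92 CPM in WT. Batf3, which the cross-presenting type needs, stood at 2.77 to 6.43 CPM in KO, 0.873 to 4.22 CPM in Het and 5.15 to 6.07 CPM in WT. Clec10a, a lectin that macrophages share, stood at 2.98 to 9.06 CPM in KO, 1.16 to 2.92 CPM in Het and 2.85 to 6.70 CPM in WT. The neutrophil genes S100a9 and Ly6g were at or near 0, with a highest value of 0.114 CPM for S100a9 in KO 2 and no read of Ly6g in any library. Of the same list, S100a8 reached 1.32 CPM in Het 3 and Csf3r 1.61 CPM in Het 2. Vsig4 and Cd5l, which mark liver macrophages among others, had no read anywhere.

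Summed over the 32 genes, the level was 329, 219 and 205 CPM in KO, 161, 201 and 152 CPM in Het, and 200.2, 269 and 280.3 CPM in WT. Het libraries took the lowest places, although Het 2 lay just above WT 1, and KO 1 stood well above the other KO libraries. The means were 250.7 ± 68.1 CPM in KO, 171 ± 26.2 CPM in Het and 249.8 ± 43.3 CPM in WT (SD, n = 3 each). The mean in KO was 1.0 times that in WT, the mean in Het was 0.685 times that in WT, and the mean in KO was 1.46 times that in Het. Without KO 1 the ratio of KO to WT was 0.847 and that of KO to Het was 1.24. KO 1 held the highest value of 9 of the 32 genes, while 23 of the 32 had their lowest value in a Het library.

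**Figure D1:**
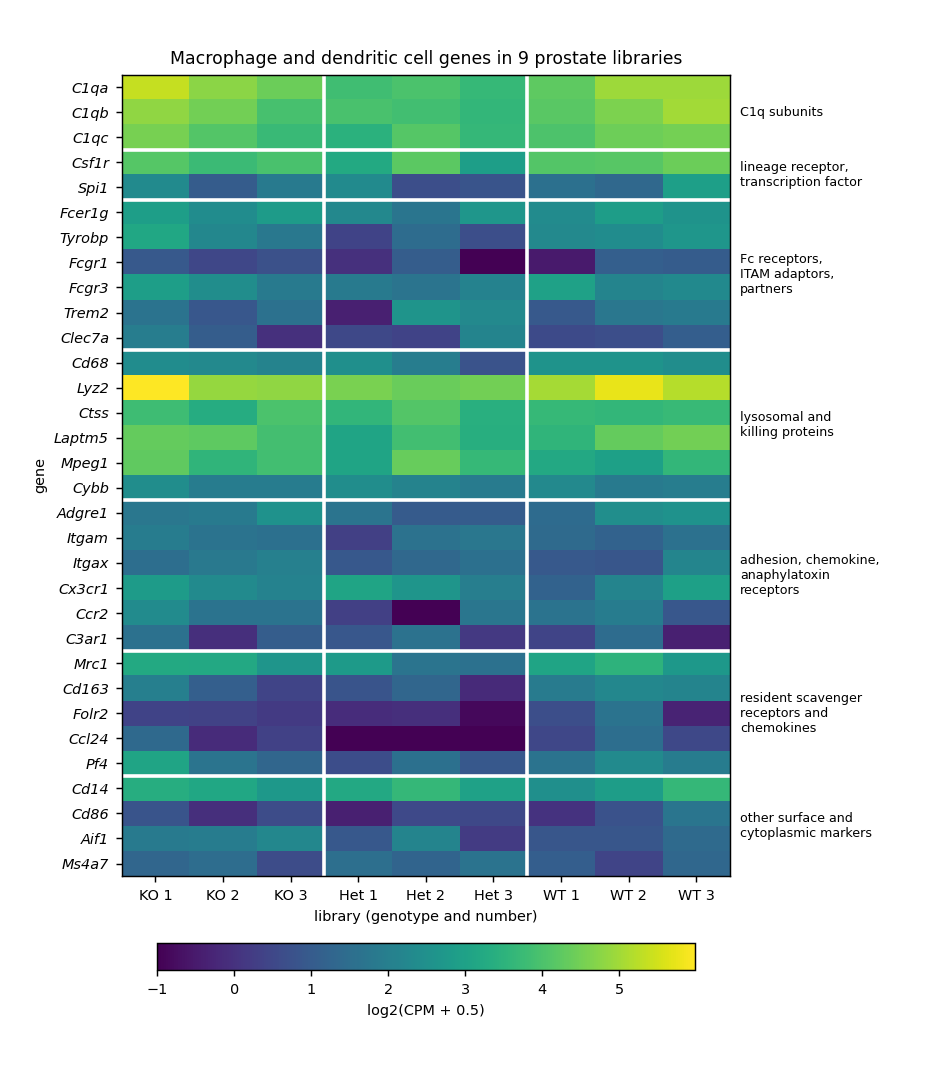
Level of each of the 32 genes (rows, grouped by role) in each library (columns, KO, Het and WT from left to right), as log2(CPM + 0.5) by colour. Lyz2 and the C1q genes are the brightest rows, KO 1 holds the highest value of 9 genes, and Ccl24 is dark in all 3 Het libraries.

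Per gene, no member passed an adjusted p of 0.05 by edgeR in any comparison, and neither did any other gene, so the called share was 0% in each direction. DESeq2 called 1 of the 32, Ccl24, lower in Het against WT, where it called 0.899% of all genes lower, and higher in KO against Het, where it called 0.928% higher. In Het against WT, limma voom with quality weights called 3 lower (Csf1r, Cd68 and Ccl24), against 3.43% of all genes. The lowest adjusted p over all genes was 1 in KO against WT, 0.38 in Het against WT and 0.311 in KO against Het. In KO against WT, 17 of the 32 log2 fold changes were positive and 15 negative (46.9%, against 49.4% of all genes tested), with a median of 0.02 beside 0.01 for all genes. None had an unadjusted p under 0.05, a bar that 2.2% of all genes passed on the higher side and 1.37% on the lower. In Het against WT, 22 were negative and 10 positive (68.8% negative, against 50% of all genes), with a median of -0.72 beside 0.00 for all genes. Of the 32, 8 were lower at an unadjusted p under 0.05, against 5.61% of all genes, and none was higher, against 3.43%. In KO against Het, 26 were positive and 6 negative (18.8% negative, against 48% of all genes), the median was 0.55 beside 0.02, and 7 of 32 were higher at an unadjusted p under 0.05, against 4.42% of all genes. None was lower at that bar, against 1.81%. Any pair of these comparisons shares the libraries of 1 genotype, so their counts are not separate observations. The 32 were chosen with earlier results of these data known. Their shares beside those of all genes are therefore a description, not independent evidence. Without KO 1, 23 of the 32 were negative in KO against WT, and the median in KO against Het was 0.34. Without WT 3, the median in Het against WT was -0.46. Without the 3 libraries low in Sbp, the median of the 32 was -0.12 in KO against WT, -0.85 in Het against WT and 0.64 in KO against Het. That fit keeps WT 2 as the only WT library, beside Het 1 and Het 3. The values against WT therefore rest on a single WT library and carry no spread within WT.

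**Figure D2:**
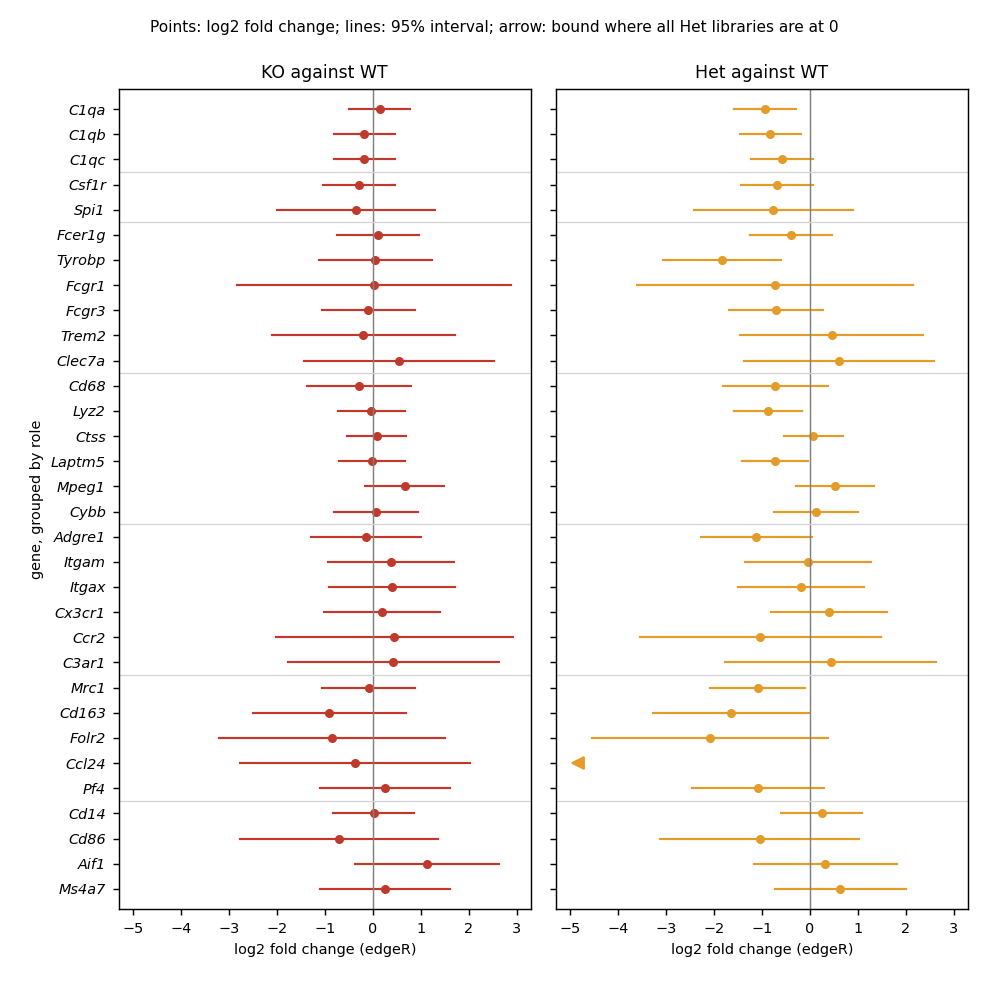
Log2 fold change of each gene (rows, grouped by role) by edgeR, for KO against WT (left) and Het against WT (right), with 95% intervals as lines. On the left 17 points lie above 0 and 15 below, and on the right 22 lie below 0. The arrow marks Ccl24, which had no read in any Het library and is drawn at its bound.

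C1qa, C1qb and C1qc encode the 3 chains of C1q, the recognition unit of the classical complement pathway, which tissue macrophages make in large amounts. They lie in a cluster of 18675 bases on chromosome 4 (GRCm38, chr4:136880129-136898803, minus strand). C1qa stood at 40.8, 26.5 and 20.8 CPM in KO, at 13.7, 15.4 and 12.2 CPM in Het, and at 18.5, 30.8 and 30.5 CPM in WT. Every Het library lay below every KO and WT library, while KO and WT overlapped. C1qb stood at 27.8, 21.8 and 14.9 CPM in KO, at 15.1, 14.2 and 11.9 CPM in Het, and at 17.6, 23.6 and 31.8 CPM in WT. C1qc stood at 22.8, 16.9 and 12.8 CPM in KO, at 10.4, 17.1 and 12.03 CPM in Het, and at 15.8, 21.1 and 22.3 CPM in WT. For C1qb the Het libraries lay below all WT libraries but reached into the KO range, and for C1qc Het 2 overlapped both other groups.

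In Het against WT the log2 fold change was -0.95 ± 0.29 (SE) for C1qa, with a 95% interval of -1.59 to -0.30 and an adjusted p of 0.419. It was -0.83 ± 0.29 for C1qb, with an interval of -1.46 to -0.19 and an adjusted p of 0.459. C1qc had -0.58 ± 0.29, with an interval of -1.22 to 0.05. In KO against Het, C1qa had 1.09 ± 0.29, with an interval of 0.44 to 1.74 and an adjusted p of 0.64. In KO against WT, C1qa had 0.14 ± 0.29, with an interval of -0.50 to 0.78, and its sign turned without KO 1, at -0.17, and without WT 1, at -0.06. The summed C1q level was 91.3, 65.2 and 48.4 CPM in KO, 39.2, 46.8 and 36.1 CPM in Het, and 51.9, 75.5 and 84.6 CPM in WT, so that no Het library reached the lowest library of either other group. C1q made up 23.7% to 29.8% of the 32-gene sum in KO, 23.3% to 24.4% in Het and 25.9% to 30.2% in WT.

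Per length, in the deposited FPKM (fragments per kilobase of gene and unit of library size), the ratio of the C1qa level to the C1qb level was 1.53, 1.27 and 1.46 in KO, 0.952, 1.14 and 1.08 in Het, and 1.10, 1.37 and 1.003 in WT. The 3 chains are built into C1q in equal numbers, and C1qc stood lowest of them in every library, at 0.388 to 0.680 times C1qb.

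Csf1r, the receptor for CSF1 and IL-34 on which most tissue macrophages depend, stood at 17.1, 12.9 and 15.3 CPM in KO, at 8.97, 18.2 and 7.01 CPM in Het, and at 16.7, 17.6 and 20.9 CPM in WT. Het 1 and Het 3 were the lowest of the 9 libraries, but Het 2 lay within the WT range. The log2 fold change was -0.69 ± 0.34 in Het against WT, with an interval of -1.45 to 0.06 and an adjusted p of 0.578. That value was -1.21 without Het 2 and -0.44 without Het 3. It was -0.29 ± 0.34 in KO against WT, with an interval of -1.04 to 0.47, and 0.41 ± 0.34 in KO against Het, where it was 0.90 without Het 2 and 0.15 without Het 3. Part of the Csf1r exons, 873 bases, overlaps Hmgxb3 on the opposite strand, and the sources used here do not say whether counting used strand, so reads of both genes cannot be told apart there. Spi1 stood at 1.54 to 4.56 CPM in KO, 1.10 to 4.54 CPM in Het and 2.09 to 7.21 CPM in WT, and the groups overlapped.

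PU.1 binds purine-rich sites around the core GAGGAA, and the windows just before the start sites of the genes were read for that core because Spi1 is itself among the 32. RefSeq windows of 250 bases on GRCm38.p6 were matched by symbol for 24 of the 32 genes. C1qa, Csf1r, Spi1, Tyrobp, Adgre1, Ccl24, Cd14 and Cd86 had no entry. GAGGAA, counted on both strands, was found in 13 of the 24 (54.2%), against 25.9% of 27025 genes in the table. The longer GAGGAAGT, each copy of which also holds GAGGAA, was found in 2 of the 24 (8.33%), against 2.79% of all genes. A match is a run of letters, not a shown binding site. The 3 windows below, read 5′ to 3′ along the gene's strand, show the core in capitals (TTCCTC where it lies on the opposite strand) in genes whose Het libraries did and did not lie below WT. They are C1qb (chr4:136886201-136886450, minus strand), where the core begins 30 bases before the start, Pf4 (chr5:90772185-90772434, plus strand), where it begins 8 bases before, and Ctss (chr3:95526536-95526785, plus strand), where it begins 164 bases before. The Het libraries lay below all WT libraries for C1qb and Pf4 and not for Ctss. The windows were chosen by these levels, and a link between core and level was not tested. The nearest core began 7 bases before the start in Aif1 and 15 in Itgam, whose Het and WT libraries overlapped. It began 6 or 15 bases before in Fcgr3, whose Het libraries lay below WT. Lyz2 and Cd163, also below WT in Het, had no core in their windows.
C1qb: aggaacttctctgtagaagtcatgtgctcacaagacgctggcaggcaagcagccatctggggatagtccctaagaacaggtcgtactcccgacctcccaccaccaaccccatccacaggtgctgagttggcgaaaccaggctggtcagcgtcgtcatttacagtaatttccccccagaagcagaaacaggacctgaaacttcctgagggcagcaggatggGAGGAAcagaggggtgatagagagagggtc
Pf4: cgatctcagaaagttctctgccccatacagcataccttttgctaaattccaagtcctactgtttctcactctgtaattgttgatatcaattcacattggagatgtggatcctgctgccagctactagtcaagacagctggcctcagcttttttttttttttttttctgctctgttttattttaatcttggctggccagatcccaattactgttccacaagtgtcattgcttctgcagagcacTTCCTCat
Ctss: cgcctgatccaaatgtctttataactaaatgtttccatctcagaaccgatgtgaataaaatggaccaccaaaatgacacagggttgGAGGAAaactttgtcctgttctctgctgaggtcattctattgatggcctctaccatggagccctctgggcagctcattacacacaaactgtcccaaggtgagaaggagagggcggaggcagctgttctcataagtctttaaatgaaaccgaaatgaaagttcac

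The next group pairs Fc receptors and related sensors with the adaptors that carry their signal. Tyrobp encodes DAP12, an adaptor with an ITAM motif that TREM2 and many other myeloid receptors need. It stood at 8.40, 4.21 and 2.98 CPM in KO, at 0.811, 2.25 and 1.10 CPM in Het, and at 4.39, 4.79 and 5.81 CPM in WT. All Het libraries lay below all KO and all WT libraries. The log2 fold change was -1.84 ± 0.55 in Het against WT, with an interval of -3.06 to -0.61 and an adjusted p of 0.419. In KO against Het it was 1.89 ± 0.55, with an interval of 0.67 to 3.12 and an adjusted p of 0.64. KO and WT had nearly the same mean, 5.20 ± 2.84 CPM in KO and 4.998 ± 0.73 CPM in WT (SD, n = 3 each), but the interval of their log2 fold change ran from -1.12 to 1.23. By FPKM, Tyrobp was the 6th most abundant of the 32 genes in KO and in WT and the 13th in Het.

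The other genes of the group overlapped between Het and at least one other genotype. Trem2, a lipid sensor that signals through DAP12, stood at 2.64, 1.37 and 2.51 CPM in KO, at 0.270, 5.61 and 4.36 CPM in Het, and at 1.41, 2.88 and 3.16 CPM in WT. Its Het libraries held both the lowest value and the 2 highest values of the 9. Fcer1g, the other ITAM adaptor, which serves the IgG receptors FcgammaRI and FcgammaRIII, stood at 4.78 to 7.03 CPM in KO, 2.76 to 5.85 CPM in Het and 4.65 to 6.88 CPM in WT. Fcgr3, which encodes FcgammaRIII and resembles its neighbours of the Fcgr family in sequence, stood at 3.09 to 7.03 CPM in KO, 2.71 to 3.81 CPM in Het and 3.91 to 7.53 CPM in WT. Its Het libraries lay below the WT libraries, with a log2 fold change of -0.71 ± 0.44. Fcgr1, the high-affinity IgG receptor, had no read in Het 3 and at most 1.64 CPM elsewhere, and Clec7a (Dectin-1, a receptor for fungal glucans) ran from 0.471 to 3.92 CPM with all groups overlapping.

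Among the lysosomal and killing proteins the genes parted. Lyz2, lysozyme M, was the most abundant member and stood at 62.5, 28.8 and 27.9 CPM in KO, at 23.4, 20.5 and 22.1 CPM in Het, and at 32.4, 52.9 and 36.2 CPM in WT. Its Het libraries were close together and below every other library. The log2 fold change was -0.88 ± 0.32 in Het against WT, with an interval of -1.59 to -0.17 and an adjusted p of 0.475, and 0.85 ± 0.32 in KO against Het, with an adjusted p of 0.719. Without KO 1, the value in KO against Het was 0.37, and without WT 2 that in Het against WT was -0.58. Lyz2 has a near copy, Lyz1, and the sources used here do not say how reads shared between them were counted.

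Laptm5, a lysosomal membrane protein of blood cells, stood at 19.8, 18.6 and 14.4 CPM in KO, at 7.9996, 14.1 and 9.88 CPM in Het, and at 11.3, 19.6 and 22.1 CPM in WT. The Het libraries lay below the KO libraries by a small margin, and Het 2 lay above WT 1. The log2 fold change was 0.72 ± 0.31 in KO against Het, with an interval of 0.03 to 1.42 and an adjusted p of 0.784. In Het against WT it was -0.73 ± 0.31, with an adjusted p of 0.529.

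Mpeg1, perforin-2, a pore-forming protein of phagocytes, stood at 18.9, 11.3 and 14.1 CPM in KO, at 7.89, 19.9 and 12.3 CPM in Het, and at 8.73, 7.32 and 11.8 CPM in WT. It had the smallest p of the 32 in KO against WT, with a log2 fold change of 0.67 ± 0.37, an interval of -0.15 to 1.48 and an adjusted p of 1. One KO library, KO 2, lay below WT 3. Ctss, the protease cathepsin S, which trims the invariant chain of MHC class II, stood at 9.56 to 15.6 CPM in KO, 9.99 to 16.7 CPM in Het and 11.8 to 12.6 CPM in WT. Cybb, the catalytic subunit of the phagocyte NADPH oxidase, stood at 3.295 to 4.83 CPM in KO, 3.26 to 4.81 CPM in Het and 3.15 to 4.34 CPM in WT. These were the steadiest of the 32 genes, with coefficients of variation over the 9 libraries of 18.6% for Ctss and 18.1% for Cybb, where counting alone would give 6.37% and 11.7%. For Ctss the interval of the log2 fold change in Het against WT ran from -0.54 to 0.68. Cd68, a lysosomal glycoprotein, stood at 4.78, 4.38 and 3.87 CPM in KO, at 5.03, 3.36 and 1.21 CPM in Het, and at 5.54, 5.46 and 4.87 CPM in WT. Its KO libraries lay below all WT libraries, the only member of which this held, where 6.04% of all genes did the same.

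**Figure D3:**
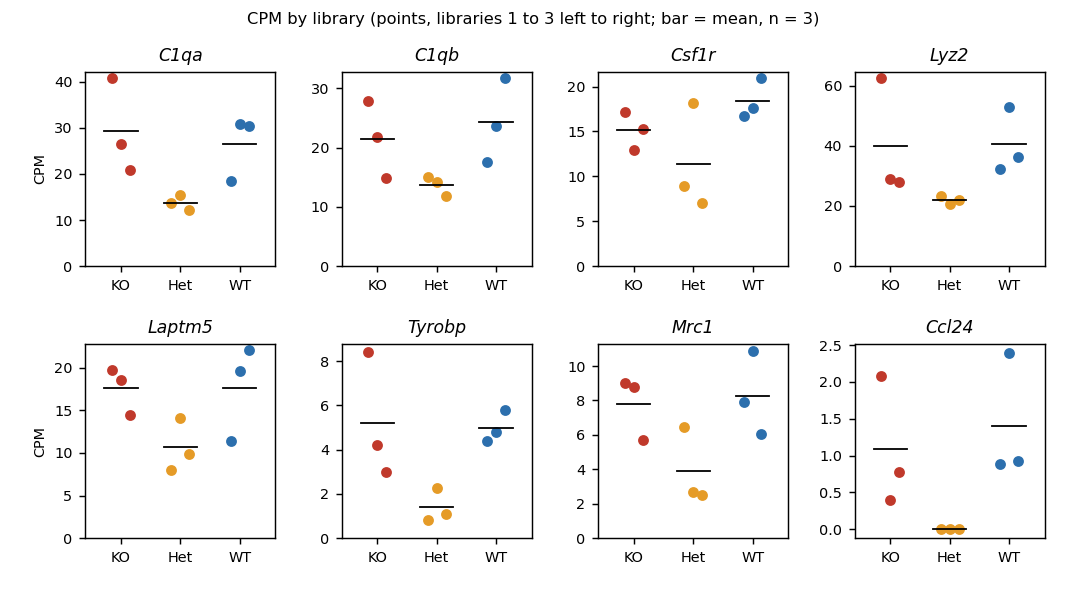
CPM of 8 of the genes in each library (points, KO, Het and WT from left to right) with the mean of each genotype (bar, n = 3). For C1qa, Lyz2, Tyrobp and Ccl24 all 3 Het points lie below every KO and WT point, while for Csf1r Het 2 lies among the WT points.

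The receptors that mark blood-derived and resident cells showed no common order. Adgre1, which encodes F4/80, stood at 2.91 to 5.34 CPM in KO, 1.52 to 2.70 CPM in Het and 2.20 to 5.39 CPM in WT, and its Het libraries lay below all KO libraries. Itgam (CD11b) ran from 2.46 to 3.295 CPM in KO, 0.757 to 2.92 CPM in Het and 1.78 to 2.54 CPM in WT. Itgax (CD11c), which lies near it on chromosome 7 and is shared by dendritic cells, ran from 2.36 to 3.61 CPM in KO, 1.41 to 2.48 CPM in Het and 1.33 to 4.04 CPM in WT. For both integrin genes the groups overlapped. Itgam exons share 3450 bases with Gm49368 on the same strand, so its reads may be split. Cx3cr1, the fractalkine receptor, had its highest value, 7.95 CPM, in Het 1 and its lowest, 1.78 CPM, in WT 1; 78 bases of its exons lie opposite the antisense gene Gm33858. Ccr2, which draws monocytes out of the blood, stood at 4.67, 2.67 and 2.67 CPM in KO, at 0.757, 0 and 2.81 CPM in Het, and at 2.67, 3.28 and 1.35 CPM in WT. Het 2, with no Ccr2 read, held the highest Trem2 and Mpeg1 of all libraries. C3ar1, the receptor for complement C3a, ran from 0.259 to 2.57 CPM with all groups overlapping.

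The genes of tissue-resident macrophages, mostly scavenger receptors and chemokines, were the group that stood lowest in Het. Their sum was 23.3, 14.3 and 9.94 CPM in KO, 9.19, 7.63 and 4.36 CPM in Het, and 15.8, 24.7 and 14.6 CPM in WT, and the mean in Het was 0.385 times that in WT. All 5 log2 fold changes in Het against WT were negative, with a median of -1.65, which is unaltered with Ccl24 at its bound. They made up 2.87% to 5.72% of the 32-gene sum in Het, against 5.20% to 9.18% in WT, so that the ranges overlapped. In KO they made up 4.86% to 7.10%.

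Mrc1, the mannose receptor CD206, stood at 9.01, 8.76 and 5.70 CPM in KO, at 6.43, 2.71 and 2.54 CPM in Het, and at 7.90, 10.9 and 6.07 CPM in WT. Het 1 lay within both other groups. Its log2 fold change was -1.09 ± 0.44 in Het against WT, with an interval of -2.07 to -0.10 and an adjusted p of 0.511, and 1.01 ± 0.44 in KO against Het, with an adjusted p of 0.797. Without Het 1 these values were -1.66 and 1.58. Cd163, the receptor that clears haemoglobin bound to haptoglobin, stood at 3.57, 1.65 and 0.837 CPM in KO, at 1.24, 1.98 and 0.386 CPM in Het, and at 3.24, 4.22 and 3.94 CPM in WT. It was lower in every Het library than in any WT library, while KO 1 reached the WT range. The log2 fold change was -1.65 ± 0.73 in Het against WT and -0.91 ± 0.71 in KO against WT, with adjusted p of 0.545 and 1. In KO against WT it was -1.61 without KO 1 and -0.55 without KO 3.

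Ccl24, eotaxin-2, a chemokine that attracts eosinophils, stood at 2.09, 0.398 and 0.785 CPM in KO, had no read in any Het library, and stood at 0.889, 2.40 and 0.933 CPM in WT. These values rest on 38, 7 and 15 reads in KO and 17, 54 and 18 reads in WT. Set against a floor of 3 reads over the group, the level in Het was at least 28.4-fold lower than in WT, and the level in KO at least 21.3-fold higher than in Het, for counting error only. Other low genes were also often empty in Het: of genes averaging 1 to 3 CPM, 10.6% to 12.4% had no read in each Het library. The bounds do not take that into account. Its adjusted p was 0.392 in Het against WT and 0.64 in KO against Het by edgeR. DESeq2 gave 0.00252 in Het against WT, where the alternatives ranged up to 0.922, and 0.00553 in KO against Het, where they ranged up to 1.

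Folr2, folate receptor beta of resident macrophages, stood at 0.824, 0.796 and 0.628 CPM in KO, at 0.432, 0.460 and 0.0552 CPM in Het, and at 1.10, 2.66 and 0.311 CPM in WT. It rested on 60 reads in WT 2 and on 6 in WT 3, and in KO against WT its log2 fold change, -0.85 ± 1.06, turned to 0.14 without WT 2. Its exons share 975 bases with the antisense gene Gm10602. Pf4, the chemokine CXCL4, which platelets also carry, stood at 7.85, 2.73 and 1.99 CPM in KO, at 1.08, 2.48 and 1.38 CPM in Het, and at 2.67, 4.53 and 3.32 CPM in WT. Its Het libraries lay below all WT libraries and overlapped KO.

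The remaining 4 genes summed to 12.4 to 15.98 CPM in KO, 11.6 to 18.8 CPM in Het and 8.47 to 18.97 CPM in WT, so that the groups overlapped. Cd14, the co-receptor for bacterial lipopolysaccharide, stood at 9.61, 8.36 and 6.12 CPM in KO, at 8.81, 11.996 and 7.40 CPM in Het, and at 5.02, 6.84 and 11.98 CPM in WT. Aif1 (IBA1), an actin-binding protein of macrophages and microglia, stood at 3.13, 3.299 and 4.18 CPM in KO, at 1.41, 3.91 and 0.662 CPM in Het, and at 1.31, 1.33 and 2.18 CPM in WT. Aif1 was the only member of which every KO library lay above every WT library, where 8.14% of all genes did the same, and its log2 fold change was 1.14 ± 0.67, with an interval of -0.36 to 2.64 and an adjusted p of 1. Cd86, a costimulatory ligand for T cells that dendritic cells share, stood at 1.26, 0.455 and 1.05 CPM in KO, at 0.270, 0.965 and 0.938 CPM in Het, and at 0.523, 1.198 and 2.80 CPM in WT. In KO against WT its log2 fold change, -0.70 ± 0.92, turned to 0.09 without WT 3. Ms4a7, a membrane protein of macrophages, ran from 0.843 to 2.65 CPM with overlapping groups. Together these 4 genes made up 4.86% to 6.61% of the 32-gene sum in KO, 7.66% to 9.33% in Het and 3.80% to 6.77% in WT, a share of a sum that itself averaged lower in Het.

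Counting genes whose libraries did not overlap, 8 of the 32 lay lower in all Het than in all WT libraries (Ccl24, Tyrobp, C1qa, C1qb, Lyz2, Cd163, Pf4 and Fcgr3), where 8.59% of all genes did. None lay higher, where 4.7% of all genes did. In KO against Het, 7 lay higher in all KO libraries (Ccl24, C1qa, Tyrobp, Lyz2, Laptm5, Adgre1 and Folr2), where 7.8% of all genes did. None lay lower, where 4.12% of all genes did. These counts, too, come from genes chosen with earlier results known.

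The ligands and other genes around these cells were read from lists that were also chosen with earlier results known. Csf1, the growth factor that CSF1R binds, stood at 15.3, 14.1 and 17.9 CPM in KO, at 8.27, 9.65 and 10.8 CPM in Het, and at 10.4, 11.5 and 8.71 CPM in WT. Its KO libraries lay above all others, while Het and WT overlapped. The log2 fold change was 0.63 ± 0.23 in KO against WT, with an adjusted p of 1, and 0.72 ± 0.23 in KO against Het, with an adjusted p of 0.666. Gas6, a bridge between dying cells and the engulfment receptor MERTK, averaged 332 ± 88.7 CPM in KO, 176 ± 36.4 CPM in Het and 357 ± 29.4 CPM in WT (SD, n = 3 each), and its log2 fold change in Het against WT was -1.02 ± 0.22, with an adjusted p of 0.392. In that comparison 6 of 9 tested growth factor and attracting ligand genes were negative and 3 positive, where 50% of all genes were negative. Of the 9, 2 were lower at an unadjusted p under 0.05 (Gas6 and C3), where 5.61% of all genes were. At that bar 1 was higher, where 3.43% of all genes were.

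Of 43 tested genes of a wider macrophage list, 25 were negative in Het against WT, where 50% of all genes were, with a median log2 fold change of -0.21. The other 18 were positive. Of the 43, 6 were lower at an unadjusted p under 0.05, where 5.61% of all genes were, and 1 was higher, where 3.43% were. The sum of the list averaged 2067 CPM in Het and 1923 CPM in WT, a ratio of 1.08, with overlapping groups. Apoe, Cd52 and Ctsb were among its largest parts. The genes named next were taken by smallest p. Stab1 and Lyve1, scavenger and hyaluronan receptors that sinusoidal and lymphatic endothelium shares, had log2 fold changes of -1.46 ± 0.33 and -2.82 ± 0.57, each with an adjusted p of 0.392. Syk, the kinase that acts after ITAM adaptors, had -2.26 ± 0.57, with an adjusted p of 0.401. In KO against WT the same list held 22 positive and 21 negative genes, where 49.4% of all genes were negative. Of 17 tested dendritic cell genes, 6 were negative in KO against WT and 9 in Het against WT, beside the same 49.4% and 50% of all genes. In KO against Het 3 were negative and 14 positive, where 48% of all genes were negative. In Het against WT, 4 of the 17 were lower at an unadjusted p under 0.05, where 5.61% of all genes were. Siglech and Ccl22, both without reads in Het and low elsewhere, were among them. None was higher at that bar, where 3.43% of all genes were. Of 8 genes of MHC class II presentation, 6 were negative in Het against WT, and H2-Aa had a log2 fold change of -0.68 ± 0.32, with an adjusted p of 0.566. Of 14 tested activation genes 5 were negative in Het against WT (35.7%, against 50% of all genes) and 9 positive, with a median of 0.16. Among the negative ones was Retnla, a marker of interleukin-4 responses, at -2.15 ± 0.89 with an adjusted p of 0.532.

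Genes of several other cell types, though not of all, also stood lower in Het, and their part in the result was not tested. The summed level of 8 pan-leukocyte genes was 20.8 to 34.8 CPM in KO, 12.97 to 16.3 CPM in Het and 17.8 to 22.1 CPM in WT, and all 8 were negative in Het against WT. Ptprc (CD45), carried by all leukocytes, stood at 4.998, 3.87 and 3.24 CPM in KO, at 0.757, 2.71 and 3.26 CPM in Het, and at 1.52, 2.53 and 4.15 CPM in WT, so that the groups overlapped. The sum of 12 endothelial genes was 103 to 208 CPM in KO, 49.5 to 67.2 CPM in Het and 84.6 to 147 CPM in WT, and all 12 were negative in Het against WT.

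The sum of 7 red blood cell genes was 48.9 to 84.8 CPM in KO, 12.3 to 28.2 CPM in Het and 49.4 to 84.0 CPM in WT, with 5 of 6 tested genes negative. The sum of 10 fibroblast genes was 951 to 1219 CPM in KO, 397 to 688 CPM in Het and 528 to 1073 CPM in WT, with 10 of 10 negative. The sum of 10 mast cell genes was 383 to 451 CPM in KO, 166 to 306 CPM in Het and 355 to 517 CPM in WT, with 5 of 7 tested genes negative. Most of that sum was Gata2, a transcription factor that is not specific to mast cells, at 364 to 428 CPM in KO, 163 to 257 CPM in Het and 334 to 494 CPM in WT. The mast cell proteases Mcpt4, Cma1 and Tpsb2 had no read in any Het library, nor had the low genes Tpsab1, Fcer1a and Ms4a2. Others of the list differed. Cpa3 stood at 0.828 CPM in Het 3, and Kit and Hdc had their highest values, 44.3 and 5.38 CPM, in Het 2.

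The summed level of some other lists was not below KO and WT in all Het libraries. The smooth muscle sum was 3960 to 5526 CPM in KO, 1111 to 6904 CPM in Het and 2885 to 5763 CPM in WT, and Het 2 and Het 3 were the highest of the 9 libraries. The sum of seminal vesicle secretory genes was 96152 to 193598 CPM in KO, 6593 to 359170 CPM in Het and 31140 to 220967 CPM in WT, and its mean in Het was 1.48 times that in WT, while the median log2 fold change of its 8 genes was -2.48. The sum of monocyte and neutrophil genes overlapped between the groups, and its mean in Het was 0.903 times that in WT. Most of that sum was Plac8 and Lcn2, which averaged 92.2 and 86.8 CPM in Het and 111 and 87.9 CPM in WT. Only 3 of the 14 genes in that list were tested, so the sum says little about these cells. None of the genes in these lists passed an adjusted p of 0.05 by edgeR. With a seminal vesicle score as a covariate, the median of the 32 in Het against WT was -0.37, and with genes detected at equal depth it was -0.91. Genes detected were 17756, 17154 and 16845 in Het, and 17877 to 20394 in the KO and WT libraries. That covariate therefore cannot be cleanly separated from the Het genotype, and the -0.91 does not show what remains after adjustment.

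**Figure D4:**
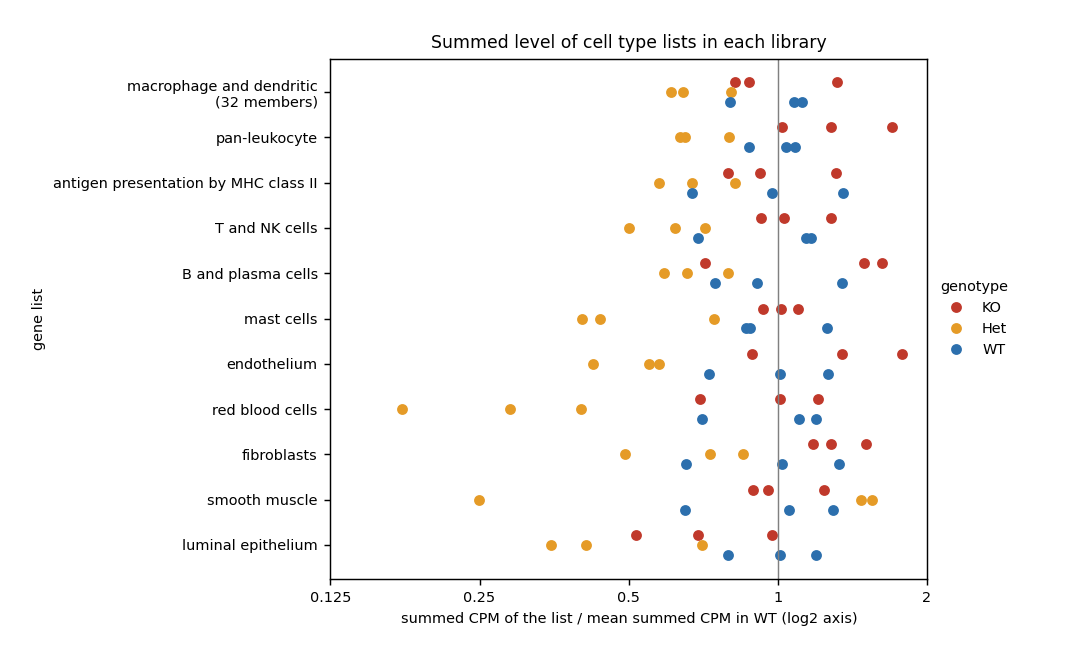
Summed CPM of 11 gene lists in each library (points), divided by the mean sum in WT, on a log2 axis, with KO, Het and WT drawn from top to bottom within each row. The 32 genes had means of 1.0 in KO and 0.685 in Het on this scale. The Het points of pan-leukocyte genes, mast cells, endothelium and red blood cells lie below all KO and WT points of their row.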

How the data were processed

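Bulk polyA RNA-seq of mouse prostate, 3 libraries per genotype, was analysed; genotypes came from library names in the labels. The authors deposited raw read counts per gene (whole numbers, not normalised), used in the tests, and FPKM, used to compare genes per length; the deposited gene length is also theirs. Per the submitters' processing notes the genome build was GRCm38 (mm10); the aligner, counter and strandedness are unknown from the sources used here. Counts were fitted with edgeR 4.0.16 (R 4.3.3; TMM, filterByExpr, robust quasi-likelihood, genotype only) over 16836 genes and 9 libraries, with Benjamini-Hochberg adjustment over all of them and a threshold of 0.05. The fit was tested on simulated data with a capped spread and changes larger than those of most members, so that test does not show its power here. Groups without reads got a floor of 3 reads. Alternatives were DESeq2 1.42.0, limma 3.58.1 voom, other normalisations and filters, covariates and left-out libraries. Replicate numbers follow accession order and pair nothing. The members and lists were chosen with earlier results of these data known. Named genes were C1qa, Csf1r, the 6 smallest p per comparison, with the rest by range, and up to 3 per context list. Values in every library for other members were added after they were seen.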

Additional observations from a re-analysis of the deposited data

How the results depend on the processing

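Per comparison, 23 alternatives were run. In KO against WT, 15 of the 32 were below 0; the count was 9 with genes detected as a covariate, and 10 to 23 when 1 library was left out (23 without KO 1). In Het against WT, none was called lower by edgeR, 1 was by DESeq2 (Ccl24) and 3 by limma voom with quality weights (Csf1r at -1.20, Cd68 at -1.81 and Ccl24 at -5.73). In KO against Het, DESeq2 called 1 higher (Ccl24, at 6.81). The median log2 fold change in Het against WT was -0.37 with a seminal vesicle score as covariate, and -0.74 to -0.46 when 1 library was left out (-0.46 without WT 3). In KO against Het that covariate left 16 genes below 0 and a median of 0.15, and genes detected as a covariate gave a median of 1.30. Genes detected were fewer in every Het library than in any KO or WT library, so they cannot be cleanly separated from the Het genotype. The sign of C1qa in KO against WT turned without the 3 libraries low in Sbp (-0.0695), a fit with WT 2 as the only WT library. Other signs also turned, none of them called. In KO against WT they were Csf1r with Sbp as covariate (0.0708), Folr2 with a skeletal muscle score (0.51) and Cd86 with genes detected (0.59). In KO against Het they were Csf1r (-0.21) and Laptm5 (-0.0379) with the seminal vesicle score and Mrc1 (-0.0615) with genes detected. With 1 library left out, C1qa in KO against WT ran from -0.17 to 0.33, Folr2 from -1.33 to 0.14 and Cd86 from -1.11 to 0.0855. The cause was not tested. A filter of 1 CPM in 3 libraries left 30 of the 32. The ratio of Het to WT sums, which takes no covariate, was computed in only some of the alternatives and ran from 0.623 to 0.741 in those. Over all genes, edgeR called 0 in each comparison, DESeq2 called 14 in KO against WT, 205 in Het against WT and 169 in KO against Het, quality weights called 699 in Het against WT, and edgeR without Het 1 called 258 there. No paired analysis was possible because the labels give no replicate numbers that the genotypes share. Depth limits the low genes most: Ccl24 and Folr2 rest on a mean of 16.6 and 16.3 reads per library, where counting alone gives a coefficient of variation of 24.6% and 24.7%.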
